A study of Rattus norvegicus with 4 samples.

Results

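The genes described here encode the collagens of the extracellular matrix, the proteoglycans, glycoproteins and elastic fibre proteins that are assembled with them, the enzymes that cross-link and cut them, and growth factors and receptors of fibroblasts. They were chosen by function as a list of 45 gene symbols, and an array probe was taken as a member when the symbol given to it in the authors' tables was on that list. All 45 members were found among the 26464 gene names on the array, with 57 probes, and 11 members had more than 1 probe. Of all gene probes, 7418 (24.4%) had no symbol in those tables. They kept the array's own name, which counts as a gene wherever all genes are given. Pancreas was taken from male weanling Sprague-Dawley rats fed for 3 weeks an iron-deficient diet (FeD, 5 ppm iron), an iron-adequate diet (FeA, 35 ppm by the sample labels) or an iron-overloaded diet (FeO, 20275 ppm). Total RNA of 6 rats was combined into 1 pool per diet. Each of the FeD and FeO pools was set against FeA on a pair of two-colour arrays, 2 per comparison, whose dyes were exchanged. The labels name no transgene, deletion or treatment besides dietary iron.

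The interstitial matrix of the pancreas is a thin scaffold between acini, islets, ducts and vessels. Fibroblasts and pancreatic stellate cells secrete most of its fibrillar collagen, which is held in register by small leucine-rich proteoglycans and hardened by lysyl oxidases, whereas epithelial and endothelial cells rest on basement membranes of type IV collagen, laminin and nidogen. Matrix metalloproteinases cut these proteins, their tissue inhibitors (the Timp genes) restrain the cutting, and transforming growth factor beta and platelet-derived growth factor are the classical signals to fibroblasts.

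As a pair of arrays carries the same RNA, it is 1 replicate, and the difference between its arrays is technical. The diets could therefore not be tested, and no p-value for a diet is given. Each value below is the log2 ratio of the diet pool over the FeA pool, as the mean of both arrays ± the distance of either array from that mean. On array 1 the diet pool was in the red channel and on array 2 in the green channel. All 4 arrays share 1 slide and 1 scan, and 61.9% to 71.5% of the 42877 spots of gene probes were well above background per channel. A gene entered a comparison when a probe was well above background on both arrays in at least 1 of the 2 pools, which 15715 genes did for FeD and 16416 for FeO. In whole pancreas, a lower level from fewer cells of a type and one from less RNA per cell cannot be told apart, and the same holds for higher levels.

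Of the members, 39 passed the background filter in FeD and 42 did so in FeO. Col6a3, Tnc (tenascin C) and Thbs1 (thrombospondin 1) passed in neither comparison. Col8a1, Fbln1 (fibulin 1) and Thbs2 did not pass in FeD, and they passed in FeO only through the FeO pool, as did Lox (lysyl oxidase). Such a gene can pass only where its pool is bright enough, so counts below are counts of genes that passed. Both pools of a comparison passed on both arrays for 38 members in FeD and for 38 in FeO.

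In the FeO pool nearly the whole set was higher than in the FeA pool. Of the 42 members, 35 had a ratio above 0 on both arrays, and 28.1% of all genes did. Among the 38 members well above background in both pools, which leaves out those that passed only through the FeO pool, 32 did, against 27% of all such genes. Only Mgp and Timp2 were below 0 on both arrays, a pattern that 24.1% of all genes showed. The median ratio of the members was 0.40, against 0.01 for all genes, and it was 0.30 on array 1 and 0.49 on array 2. The middle 90% of the members lay between 0.01 and 1.06, and the middle 90% of all genes lay between -0.33 and 0.42. At least 1.5-fold higher with the same sign on both arrays were 12 members, against 2.39% of all genes, and at least 2-fold higher were 4 members (Col4a2, Fn1, Fmod and Timp1), against 0.609% of all genes. No member was at least 1.5-fold or 2-fold lower, where 1.35% and 0.463% of all genes were. None reached the log2 ratio of 2 that the study used as its limit. These counts depended on the setting. From the scanner software's own processed signals the median was 0.61, 20 members were at least 1.5-fold higher, against 6.26% of all genes, and 9 at least 2-fold. With a background offset of 0, 19 members were at least 1.5-fold higher, against 4.39% of all genes. On array 1 alone 8 were past 1.5-fold, against 2.33% of all genes, and 2 past 2-fold, and on array 2 alone 19 were past 1.5-fold, against 5.91%, and 7 past 2-fold. For the 2-fold counts of 9, 2 and 7, the share of all genes was not counted.

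In the FeD pool the members lay near the FeA pool. Higher on both arrays were 12 of 39 members, against 25.2% of all genes, and lower on both arrays were 7 of 39, against 21.7% of all genes. With ratios centred on the median of each array in place of loess, 5 were higher on both arrays, below the 14.7% of all genes, and 4 were lower, against 12.3%. The median was 0.07 for the members and 0.01 for all genes, and the members' median had opposite signs on the arrays, -0.05 on array 1 and 0.09 on array 2. On array 1 alone 21 members were below 0, against 47.8% of all genes, and on array 2 alone 13, against 48.6%. No member was 1.5-fold higher or lower in FeD, which 1.08% and 0.675% of all genes were, and none was 2-fold higher or lower, which 0.115% and 0.242% were. From processed signals 1 member, Tgfb1 at 0.94, was at least 1.5-fold higher in FeD, against 3.4% of all genes. On array 1 alone 1 member was, against 1.59%, and on array 2 alone 4 were, against 3.1%. Both comparisons share the FeA pool, so they are not independent of each other. Side by side, 34 of the 39 members that passed in both had the higher ratio in FeO, against 50.6% of the 15243 genes that passed in both. The count was also 34 on each pair of arrays with the same dye orientation, against 49.6% (array 1) and 52.3% (array 2) of all these genes.

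**Figure D1:**
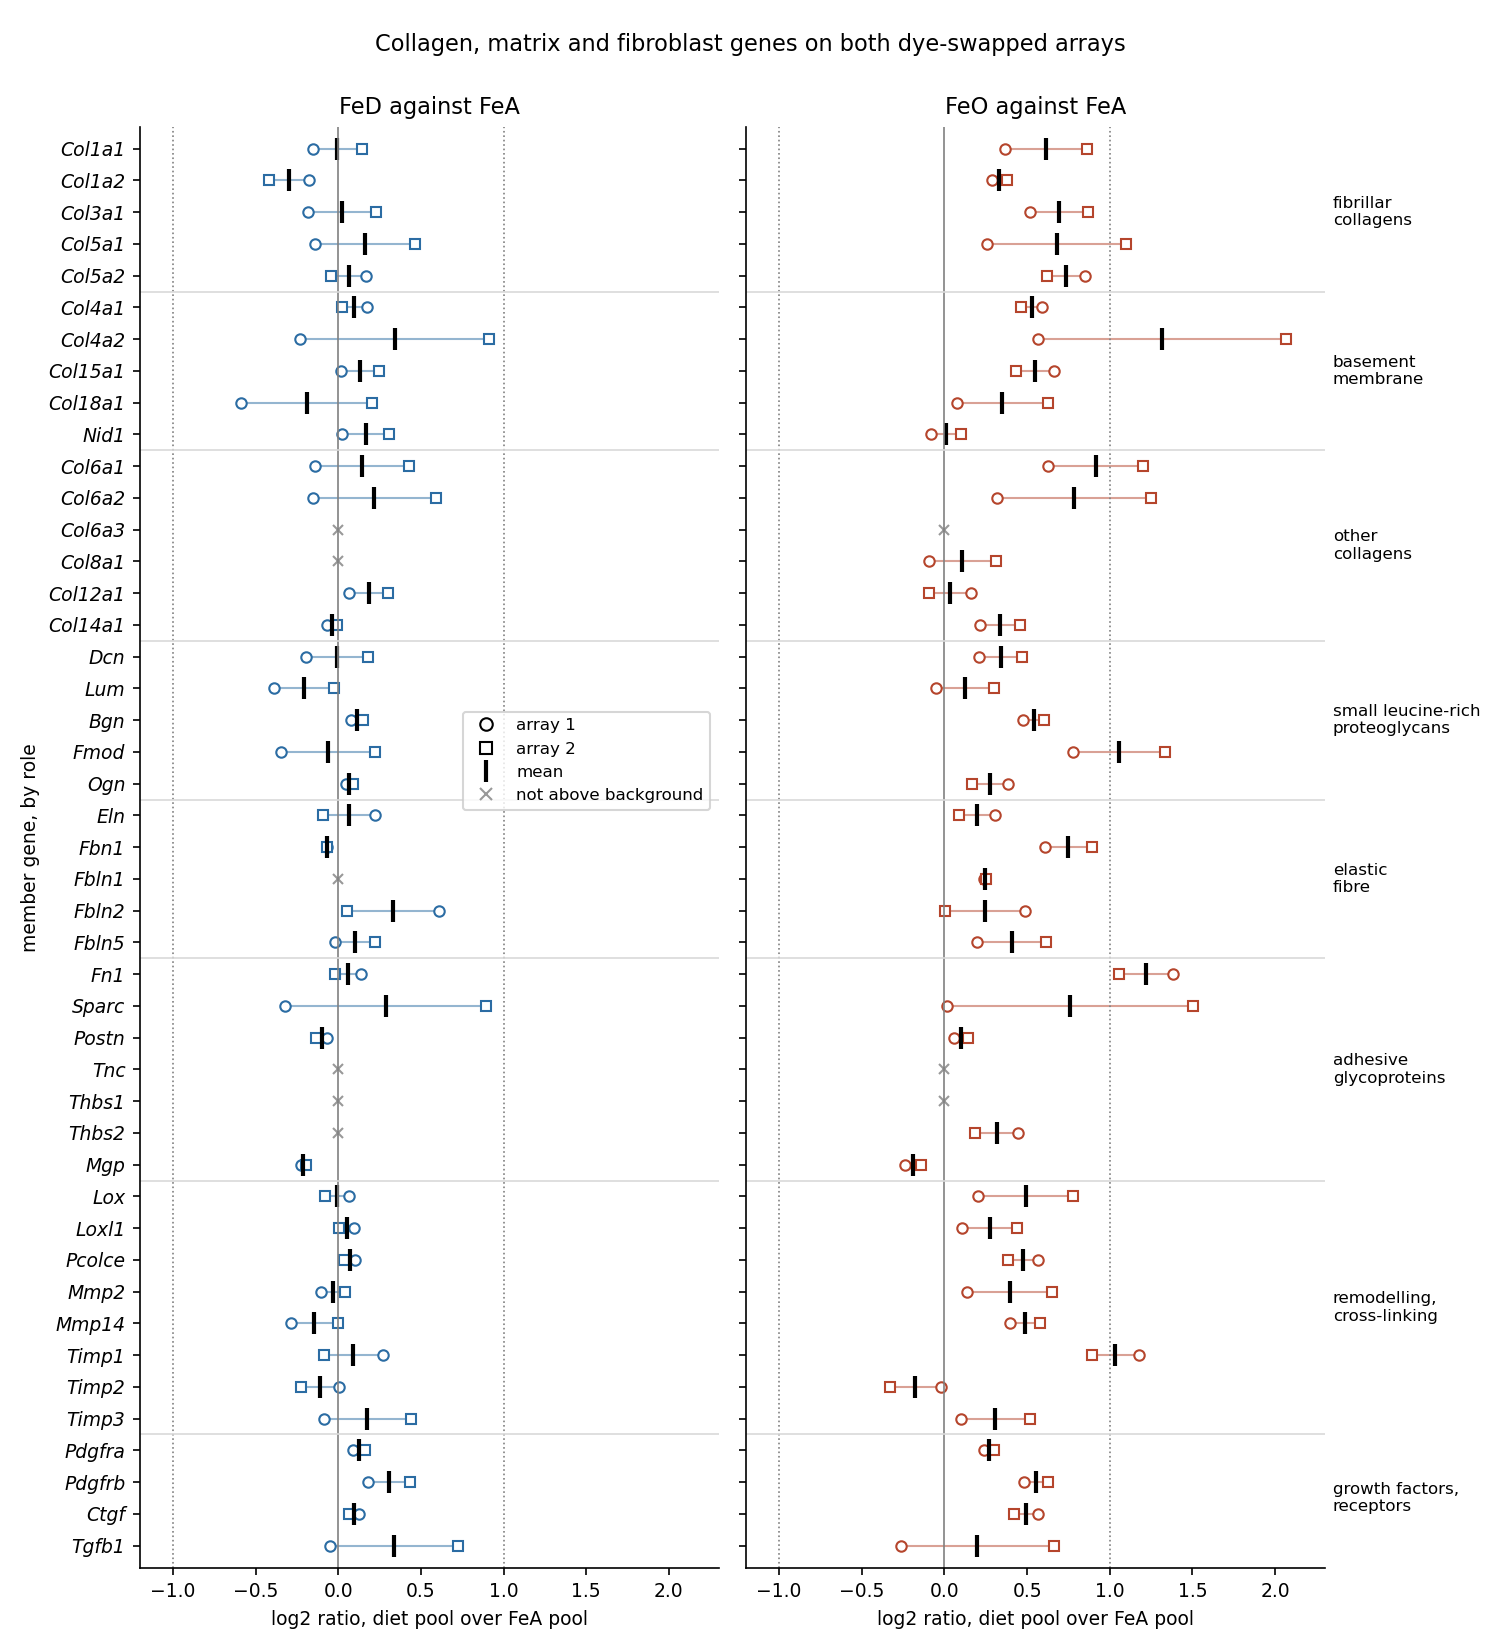
Log2 ratio of the diet pool over the FeA pool (x axis) for each of the 45 members (y axis, grouped by role), with FeD on the left and FeO on the right. Circles are array 1, squares array 2, black bars their mean, and grey crosses at 0 mark genes not above background, which have no value there. In FeO 35 members lie right of 0 on both arrays, and in FeD 12 do.

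The plot of array 1 against array 2 shows how far the arrays differ. The median absolute difference between the arrays was 0.24 for members and 0.22 for all genes in FeD, and 0.29 and 0.23 in FeO. In each comparison 10 members differed by more than 0.5 between the arrays. The gap had the same direction in both comparisons for most members. The ratio was higher on array 2 in both comparisons for 23 of 39 members and higher on array 1 in both for 9. Of all genes that passed in both, 40.6% had the higher ratio on array 2 in both comparisons and 38.4% on array 1 in both. Averaging the exchanged dyes balances such a gap, and the arrays are therefore given separately for each gene whose value depends on them.

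**Figure D2:**
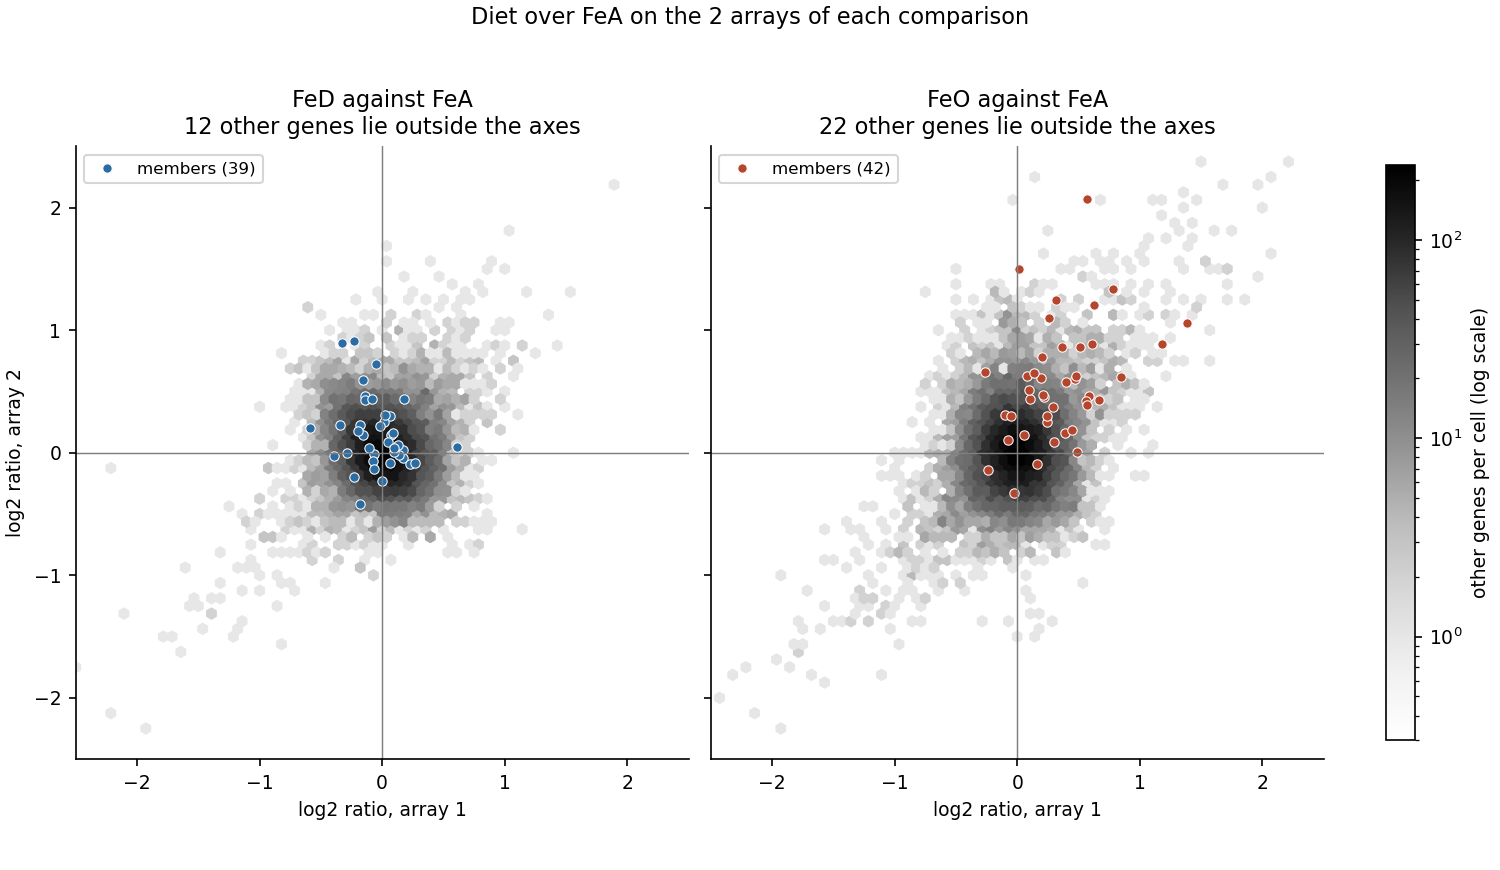
Log2 ratio on array 1 (x axis) against array 2 (y axis) for members (coloured points) and other genes (grey cells, darker where more genes fall) in FeD and FeO. Most FeO members lie in the upper right, above 0 on both axes, and several lie high on array 2 with a ratio near 0 on array 1.

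**Figure D3:**
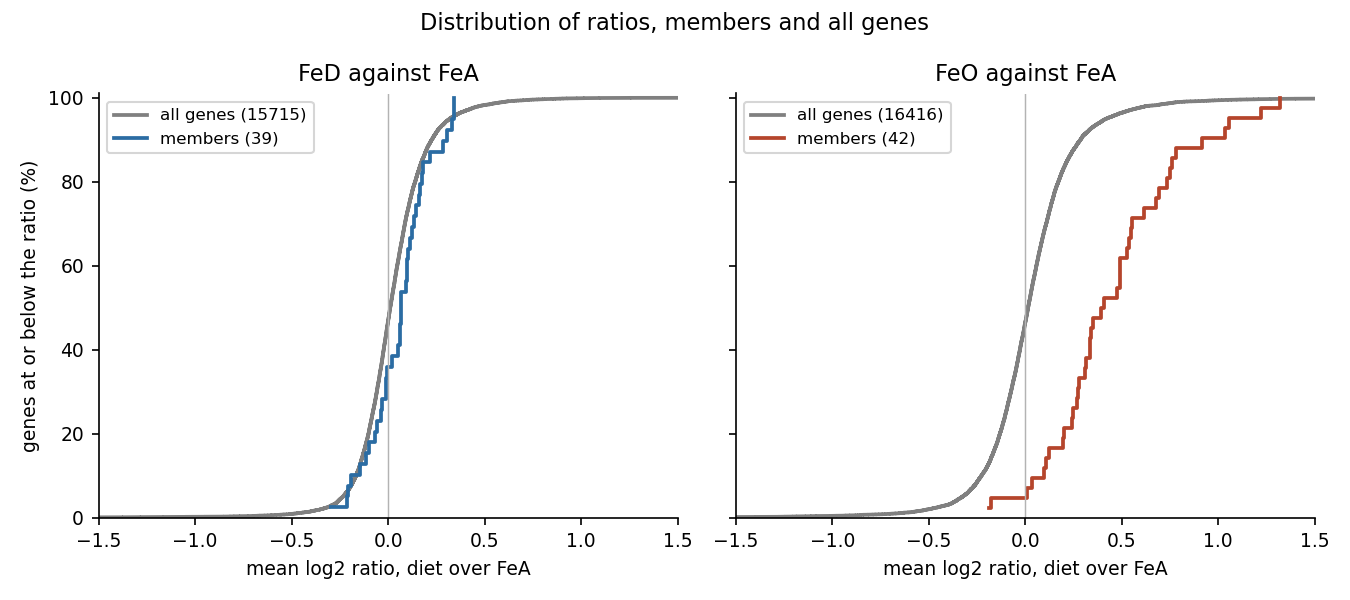
Percent of genes (y axis) with a mean log2 ratio at or below the value on the x axis, for members (coloured) and all genes that passed the filter (grey). The FeO curve of the members lies to the right of the curve of all genes, with medians of 0.40 and 0.01, and the FeD curves run close together, with medians of 0.07 and 0.01.

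A second view of the same hybridisations uses the normalised log2 intensity of each pool in its own channel, of which there are 2 values for FeD, 2 for FeO and 4 for FeA. Both FeO levels were above all 4 FeA levels for 32 of the 42 members, against 14.3% of all genes, and both were below for 0, against 11% of all genes. The 32 include Fbln1, Thbs2 and Lox, which passed only through the FeO pool, and the count was not repeated without such genes. The 10 members whose FeO and FeA levels overlapped were Col5a1, Nid1, Col8a1, Col12a1, Lum, Eln, Postn, Mgp, Timp2 and Tgfb1. For FeD, both levels were above all 4 FeA levels for 3 of 39 members (Bgn, Pdgfra and Pdgfrb), against 10.5% of all genes, and below for Col1a2 and Mgp, against 9.06% of all genes. Intensities of different probes are not compared with each other here.

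**Figure D4:**
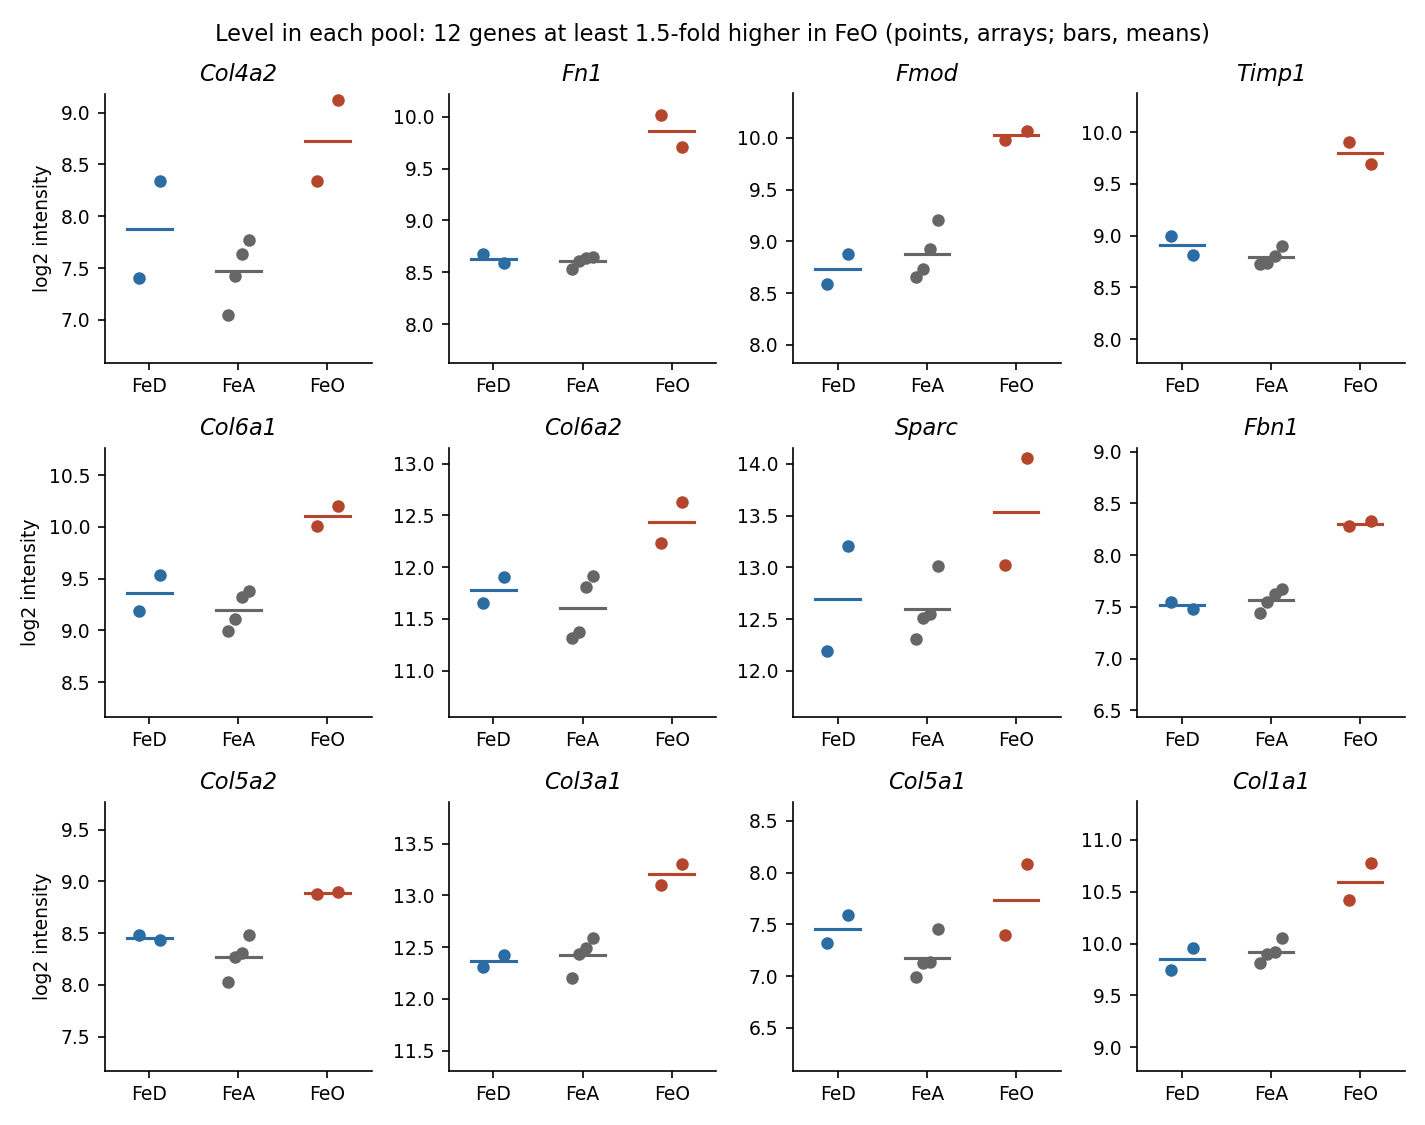
Normalised log2 intensity (y axis, spanning the same range in each panel) of the 12 members at least 1.5-fold higher in FeO, with 1 point per array and a bar at the mean of the FeD, FeA and FeO pools. FeO points lie above every FeA point in all panels except that of Col5a1, and FeD points lie among or near the FeA points except 1 point each of Col4a2 and Sparc.

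Promoter sequence from RefSeq (build GRCr8) was at hand for 29 of the 45 members. In the 250 bases before the transcript start, read on both strands, the GC box GGGCGG was found in 16 of 29 members and in 30.5% of 33469 promoters of all genes. The CCAAT box CCAAT was found in 9 of 29 members and in 34% of all promoters, and the TATA box TATAAA in 5 of 29 and 12.9%. The AP-1 site TGACTCA was found in 1 member, Col6a1, and in 4.05% of all promoters, and the antioxidant response element TGACNNNGC in 1 member, Timp1, and in 10.1%. A match of letters is a description of the window and is not a measured binding site. Parts of these windows are printed below for members whose FeO values stand at the ends of their group, with matches in capitals.

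The fibrillar collagens form the banded fibres of connective tissue. Col1a1 and Col1a2 encode the chains of type I collagen, Col3a1 the chain of type III, and Col5a1 and Col5a2 chains of type V, which starts fibres and limits their width. All 5 were higher in FeO on both arrays, with a median of 0.68, and 4 were at least 1.5-fold higher. The Col5a2 ratio, the mean of 2 probes that differed by 0.22, was 0.85 on array 1 and 0.62 on array 2. The mean for Col5a2 was 0.74 ± 0.11 or 1.66-fold. Its FeO levels of 8.88 and 8.90 lay above FeA levels of 8.03 to 8.48. The Col3a1 ratio was 0.51 and 0.87 (mean 0.69 ± 0.18, 1.61-fold), with FeO levels of 13.10 and 13.30 above FeA levels of 12.20 to 12.59. Thus both genes stood clear of the spread between arrays. The Col1a1 ratio, the mean of 2 probes that differed by 0.07, was 0.37 and 0.86 (mean 0.61 ± 0.25, 1.53-fold), with FeO levels of 10.42 and 10.78 above FeA levels of 9.81 to 10.05. The Col5a1 ratio was 0.26 and 1.1 (mean 0.68 ± 0.42, 1.60-fold). Here the pools overlapped, since the lower FeO level of 7.39 was below the highest FeA level of 7.46.

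Col1a2, the partner chain of Col1a1 in type I collagen, had the lowest FeO value of the fibrillar group. Its ratio was 0.29 on array 1 and 0.38 on array 2 (mean 0.33 ± 0.04, 1.26-fold), and its FeO levels of 12.47 and 12.37 were above FeA levels of 11.92 to 12.18. It was also the lowest of all members in FeD, with ratios of -0.18 and -0.42 (mean -0.30 ± 0.12), and both FeD levels, 11.74 and 11.73, lay below the FeA range. As means of their probes, no other fibrillar collagen was lower on both arrays in FeD. The brightest Col1a1 probe was, at -0.20 and -0.07, and its other probe was at -0.11 and 0.35. The highest of the group in FeD was Col5a1 at 0.16 ± 0.30 with opposite signs on the arrays. Among the fibrillar members with a promoter entry, Col1a2 holds both a TATA box and, on the other strand, a CCAAT box. The stretch from 250 to 151 bases before the start, at chr4:33518307-33518406 on the plus strand, is shown with both in capitals.
Col1a2: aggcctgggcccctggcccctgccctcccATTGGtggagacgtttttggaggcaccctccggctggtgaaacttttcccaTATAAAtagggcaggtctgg

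Basement membranes are sheets under epithelium and around vessels. Col4a1 and Col4a2 encode the chains that combine into the type IV collagen network, Col15a1 and Col18a1 encode collagens of the basement membrane zone, and Nid1 encodes nidogen, which links laminin to type IV collagen. In FeO 4 of the 5 were higher on both arrays, with a median of 0.53. Col4a2 had the highest ratio of all members in FeO and ranked 47 of 16416 genes, but its arrays were far apart, at 0.57 and 2.07 (mean 1.32 ± 0.75, 2.49-fold). Its FeO levels of 8.34 and 9.12 were above FeA levels of 7.05 to 7.77. The same gap appeared in FeD, where the Col4a2 ratio was -0.23 and 0.91 (mean 0.34 ± 0.57), the highest mean of any member. Col4a1, the mean of 2 probes, was 0.59 and 0.46 in FeO (mean 0.53 ± 0.06, 1.44-fold), with levels of 9.47 and 9.41 above FeA levels of 8.77 to 9.10. Its probes differed by 0.35 and had opposite gaps between the arrays, 1.02 and 0.39 for 1 and 0.16 and 0.54 for the other. The small spread of Col4a1 therefore comes from averaging the probes. Nid1 was the lowest of the group in FeO, with -0.08 and 0.10 (mean 0.01 ± 0.09), and its levels overlapped. In FeD the group ran from Col18a1 at -0.19 ± 0.40, with -0.59 on array 1 and 0.21 on array 2, to Col4a2.

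Col4a1 and Col4a2 are neighbours transcribed away from each other, and in RefSeq only 76 bases lie between their starts, so a promoter window of either gene overlaps that of the other and their motif counts share bases. The interval, chr16:84885521-84885596 on the plus strand, is shown because both genes were higher in FeO on both arrays. It reads towards Col4a1, and the capitals mark a GC box on the strand of Col4a2.
Col4a1 and Col4a2: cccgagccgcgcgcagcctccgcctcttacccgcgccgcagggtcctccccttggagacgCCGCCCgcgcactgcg

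Among the other collagens, Col6a1 and Col6a2 encode chains of type VI collagen, which forms beaded filaments near cells. Both were at least 1.5-fold higher in FeO. The Col6a1 ratio was 0.63 and 1.20 (mean 0.91 ± 0.29, 1.89-fold), rank 129 of 16416, with FeO levels of 10.01 and 10.20 above FeA levels of 8.996 to 9.385. The Col6a2 ratio was 0.32 and 1.25 (mean 0.78 ± 0.47, 1.72-fold), with FeO levels of 12.24 and 12.63 above FeA levels of 11.32 to 11.92. The third chain on the list, Col6a3, was well above background in neither pool on both arrays and has no value. Col12a1, a collagen that decorates fibres, was the lowest of this group in FeO at 0.03 ± 0.13, with opposite signs on the arrays. Col8a1, a network collagen, also had opposite signs, whereas Col14a1, another fibril-associated collagen, was higher on both arrays. In FeD the group ran from Col14a1 at -0.04 ± 0.03 to Col6a2 at 0.22 ± 0.37.

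Col6a1 and Col6a2 lie next to each other among protein-coding genes of the rat, as do Col4a1 and Col4a2, Col3a1 and Col5a2, and Dcn and Lum. These 4 pairs were all the pairs of members that are direct neighbours. In FeO the ratios within the pairs were 0.91 and 0.78 for type VI, 0.53 and 1.32 for type IV, 0.69 and 0.74 for Col3a1 and Col5a2, and 0.34 and 0.12 for Dcn and Lum.

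The small leucine-rich proteoglycans bind collagen and set the spacing and width of fibres. In FeO 4 of 5 were higher on both arrays, with a median of 0.34. Fmod, which encodes fibromodulin, a binder of type I collagen, had ratios of 0.78 and 1.34 (mean 1.06 ± 0.28, 2.08-fold) and ranked 85 of 16416. Its FeO levels of 9.98 and 10.07 were nearly alike, and its FeA levels ran from 8.65 to 9.21. In FeD the Fmod arrays disagreed in sign, at -0.35 and 0.22. Lum, which encodes lumican, was the lowest of the group in both comparisons. Its FeO ratio was -0.05 and 0.30 (mean 0.12 ± 0.18) and its FeD ratio was -0.39 and -0.02 (mean -0.21 ± 0.18). Bgn (biglycan), the mean of 2 probes, was the highest of the group in FeD at 0.11 ± 0.04. Each probe had opposite signs on the arrays there, at 0.27 and -0.19 and at -0.12 and 0.48. From its brightest probe alone Bgn was 0.04 in FeD, below Ogn (osteoglycin) at 0.07. In FeO, Bgn was 0.54 ± 0.06, from probes at 0.68 and 0.24 and at 0.27 and 0.97. Dcn (decorin) was 0.34 ± 0.13 and Ogn 0.28 ± 0.11 in FeO. The 150 bases before the Fmod start, chr13:48045417-48045566 on the plus strand, are shown with their GC box in capitals, since this was the highest of the proteoglycans.
Fmod: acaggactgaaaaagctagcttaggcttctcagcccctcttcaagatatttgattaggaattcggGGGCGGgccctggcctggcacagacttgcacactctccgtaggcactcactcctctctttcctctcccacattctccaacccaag

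Elastic fibres consist of an elastin core on a fibrillin scaffold, with fibulins as bridges. All 5 genes of this group passed in FeO and were higher on both arrays, with a median of 0.25. The count and the median include Fbln1, which passed only through the FeO pool, and were not repeated without it. Fbn1, which encodes fibrillin 1, had ratios of 0.61 and 0.89 (mean 0.75 ± 0.14, 1.68-fold), with FeO levels of 8.28 and 8.33 above FeA levels of 7.44 to 7.67. In FeD it had the lowest ratio of the group, at -0.07 on both arrays. Eln, which encodes elastin, was the lowest of the group in FeO at 0.20 ± 0.11, its 2 probes differed by 0.48, and its levels overlapped those of FeA. The dimmer Eln probe had opposite signs on the arrays, at 0.34 and -0.43. Fbln1 was not well above background in FeA on either array, so only a bound can be given. From the means of both arrays, Fbln1 was at least 1.15-fold higher in FeO. Its lower FeO level of 6.512 was barely above the highest FeA level of 6.508. Fbln2 was 0.49 on array 1 and 0.00 on array 2 in FeO, and in FeD it was the highest of the group at 0.61 and 0.05 (mean 0.33 ± 0.28).

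Adhesive and matricellular glycoproteins tie cells to the matrix or tune that bond. Fn1, which encodes fibronectin, the adhesive protein of provisional matrix, had ratios of 1.38 and 1.06 (mean 1.22 ± 0.16, 2.33-fold) and ranked 56 of 16416. Its FeO levels of 10.02 and 9.71 stood above FeA levels of 8.53 to 8.65, the clearest separation beside the spread of the FeA values among the 4 members past 2-fold. In FeD Fn1 was at 0.14 and -0.02. These values come from 1 of its 2 probes, since the other was not above background. Sparc, a collagen-binding glycoprotein made by fibroblasts, had ratios of 0.01 and 1.5 (mean 0.76 ± 0.74, 1.69-fold) in FeO, so its place among the 12 rests on array 2. In FeD, too, it was far apart at -0.32 and 0.90 (mean 0.29 ± 0.61), the highest of the group. Mgp, the matrix Gla protein that restrains calcification, was the lowest of all members in FeO, at -0.24 and -0.14 (mean -0.19 ± 0.05), with overlapping levels. In FeD it was -0.23 and -0.19 (mean -0.21 ± 0.02), and both FeD levels, 12.12 and 12.04, lay below FeA levels of 12.23 to 12.50. Postn (periostin) and Thbs2 were higher in FeO on both arrays, at 0.10 ± 0.04 and 0.32 ± 0.13, and Thbs2 passed only through the FeO pool.

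Among the remodelling and cross-linking genes 7 of 8 were higher in FeO on both arrays, with a median of 0.44. The 7 include Lox, which passed only through the FeO pool. Timp1, the tissue inhibitor of metalloproteinases that cells secrete on stimulation, had ratios of 1.18 and 0.89 (mean 1.03 ± 0.14, 2.05-fold) and ranked 91 of 16416. Its FeO levels of 9.91 and 9.69 stood above FeA levels of 8.73 to 8.90, and in FeD its arrays were 0.27 and -0.09. Timp2, the constitutive inhibitor, was the only gene of the group below 0 in FeO, at -0.02 and -0.33 (mean -0.18 ± 0.15), and its levels overlapped. Timp3 was 0.31 ± 0.21 in FeO and the highest of the group in FeD at 0.18 ± 0.26. The proteases Mmp2 (gelatinase A) and Mmp14, its membrane-bound activator, were 0.39 ± 0.26 and 0.49 ± 0.09 in FeO, and Mmp14 was the lowest of the group in FeD at -0.14 ± 0.14. Pcolce, which speeds the trimming of procollagen, was 0.48 ± 0.09 in FeO, with 2 probes that differed by 0.01. Of the lysyl oxidases, Loxl1 was 0.27 ± 0.17. Lox was not well above background in FeA on either array of that comparison, and its ratio was 0.20 and 0.78 (mean 0.49 ± 0.29). The bound for Lox, 1.41-fold, equals that mean, and array 1 lay below it. Its FeO levels of 6.68 and 6.99 compare with FeA levels of 6.21 to 6.61. The 150 bases before the Timp1 start, chrX:3771123-3771272 on the minus strand, are shown because Timp1 was the highest of this group, with a GC box of the other strand in capitals.
Timp1: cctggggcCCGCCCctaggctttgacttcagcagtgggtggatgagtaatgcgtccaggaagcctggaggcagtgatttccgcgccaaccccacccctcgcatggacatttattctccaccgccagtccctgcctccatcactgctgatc

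Of the growth factors and receptors, Pdgfra and Pdgfrb encode the platelet-derived growth factor receptors that mark fibroblasts and pericytes. Pdgfrb was the highest of the group in FeO, at 0.48 and 0.63 (mean 0.55 ± 0.08, 1.47-fold), with FeO levels of 7.45 and 7.44 above FeA levels of 6.64 to 6.97. Its FeD levels of 7.11 and 7.07 were also above that range, at a ratio of 0.31 ± 0.13. Ctgf, the connective tissue growth factor, was 0.49 ± 0.07 in FeO and the lowest of the group in FeD at 0.10 ± 0.03. Pdgfra was 0.27 ± 0.03 in FeO. Tgfb1, which encodes transforming growth factor beta 1, had opposite signs on the arrays in both comparisons, at -0.26 and 0.66 in FeO (mean 0.20 ± 0.46, the lowest of the group) and -0.05 and 0.73 in FeD (mean 0.34 ± 0.39, the highest).

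Genes outside the 45 that serve the same matrix were followed as lists. For these lists and the marker lists below, 28.1% of all genes were higher and 24.1% lower on both arrays in FeO. In FeD 25.2% were higher and 21.7% lower. At least 2-fold higher and lower were 0.609% and 0.463% of all genes in FeO, and 0.115% and 0.242% in FeD. The collagen-processing enzymes, which hydroxylate, fold and trim procollagen, numbered 22, of which 21 were on the array and 16 passed the background filter. In FeO 6 were higher and 0 lower on both arrays, with a median of 0.17, from P4hb at -0.11 to P4ha1, a prolyl hydroxylase subunit, at 0.52. In FeD 4 were higher and 2 lower, with a median of -0.00, from Plod3 at -0.21 to Fkbp10 at 0.14. None of them was 1.5-fold higher or lower. Laminins and other basement membrane genes numbered 13, of which 9 were on the array and 7 passed. In FeO 6 were higher and 1 lower, with a median of 0.25 and the highest ratio, 0.70, for Lamb2. In FeD 3 were higher and 0 lower, with a median of 0.08 and the highest ratio, 0.20, for Lamb3.

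The list of transforming growth factor beta and platelet-derived growth factor signalling had 19 genes. In FeO 6 of the 14 that passed were higher and 3 lower on both arrays, with a median of 0.04, from Tgfb3 at -0.22 to Pdgfa, a ligand of the platelet-derived growth factor receptors, at 0.67. In FeD 6 of 13 were higher and 2 lower, with a median of 0.05, from Tgfb3 at -0.55 to Pdgfa at 0.42. Of 8 collagen and fibronectin receptors 7 were on the array, and 4 of the 6 that passed were higher in FeO, with a median of 0.19, from Itga2 at 0.03 to Itga5, the fibronectin receptor subunit, at 0.31. In FeD 3 of 4 were higher, with a median of 0.10, from Itga5 at 0.01 to Ddr2 at 0.20. Itga2 and Ddr1 passed in FeO but not in FeD, and without the filter the FeO median of this list was 0.14. No gene of these 4 lists was 2-fold higher or lower on either diet.

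Markers of the cell types that whole pancreas can hold moved in both comparisons, and their part in the values of the matrix genes was not tested. Levels are given as the range, over the 2 arrays of the comparison, of the summed normalised intensity, with 1 probe per gene. Of the stellate cell markers 7 of 9 passed, and Thy1 and Lrat did not. In FeO 4 were higher and 1 lower, with a median of 0.24, from Gfap at -0.13 to Cspg4 at 0.71, and the sum was 3419 to 3472 in FeA and 4091 to 4690 in FeO. Adipocyte markers stood out most, as 7 of 8 were higher in FeO and 5 at least 2-fold (Adipoq 2.07, Cidec 1.92, Fabp4 1.47, Pparg 1.56 and Cfd 2.3), while Lep, at 0.10, had opposite signs. Their median was 1.51, and the sum was 10435 to 11437 in FeA and 36924 to 37511 in FeO. Mesothelial markers had a median of 0.62 (3 of 3 that passed higher, 1339 to 1688 in FeA and 2454 to 2887 in FeO), endothelial markers of 0.39 (5 of 5, 2035 to 2198 and 2902 to 2981), and macrophage markers of 0.31 (3 of 4, 1308 to 1731 and 1724 to 1756). Lrrn4 of the mesothelial and Plin1 of the adipocyte markers passed in FeO but not in FeD, so the filter may have favoured them. Without the filter the FeO medians of these lists were 0.47 and 1.51. On the arrays of the FeD comparison the endothelial sum of the same FeA pool was 2656 to 2687, nearer to that of FeO. Duct markers had a median of 0.09 with Krt19 at -0.98, nerve and glia markers of -0.00 with S100b at 1.17, and smooth muscle markers of -0.01 with Actg2 at -0.53.

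Markers of the secretory tissue were lower in FeO. Acinar markers, the digestive enzymes and Ptf1a, were lower on both arrays for 6 of the 7 with a value, with a median of -0.44 and a sum of 2130210 to 2921197 in FeA and 1924167 to 2135246 in FeO. Prss1 and Cpa1 had no value in FeO because their spots were marked as outliers on array 2. Islet markers were lower for 4 of 5, with a median of -0.77 and Iapp at -1.02, but Gcg, the glucagon gene, was 1.14. Lymphocyte markers had a median of -0.46 (3 of 4 lower) and intestinal epithelium markers of -1.74 (4 of 5 lower, all at least 2-fold: Cdh17 -1.82, Krt20 -1.74, Agr2 -1.70 and Guca2a -1.83), with a sum of 2568 to 2753 in FeA and 940 to 954 in FeO. The remaining intestinal marker, Vil1, was -0.13 with opposite signs on the arrays. The pancreas label was borne out by the acinar and islet markers, all of which were above background in FeD against FeA.

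In FeD the stellate cell markers had a median of -0.02 (sum 3202 to 3261 in FeA and 3109 to 3254 in FeD), the adipocyte markers of -0.02 (2 higher and 3 lower of 7) and the acinar markers of -0.04. Smooth muscle markers were lower for 5 of 5, with a median of -0.43 and Actg2 at -1.41. Islet markers had a median of -0.44 and intestinal epithelium markers of -1.38, with 4 of 5 at least 2-fold lower (Cdh17 -1.61, Krt20 -1.16, Agr2 -1.65 and Guca2a -1.38). Vil1 was -0.19 with opposite signs on the arrays. Higher medians were found for lymphocyte markers at 0.44 (5 of 5 higher), endothelial markers at 0.31 (4 of 5), macrophage markers at 0.18, mesothelial markers at 0.14 and duct markers at 0.12, while nerve and glia markers were at -0.04.

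**Figure D5:**
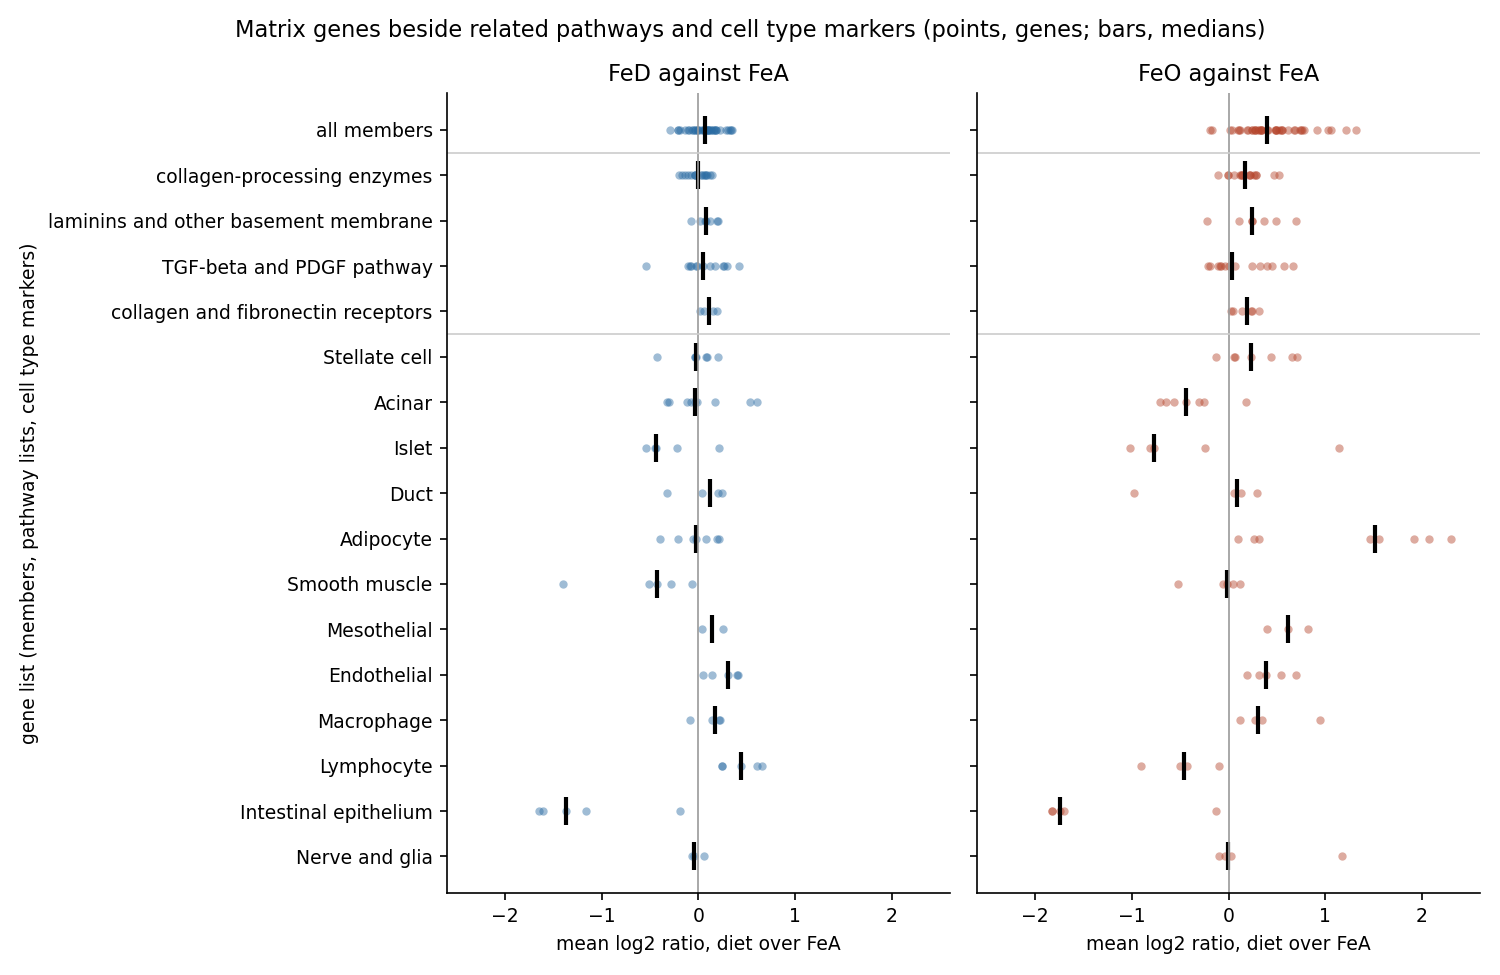
Mean log2 ratio of the diet pool over the FeA pool (x axis) for each gene (points) of the members, the 4 pathway lists and the 12 cell type lists (y axis), with medians as black bars. In FeO the members lie mostly right of 0, as do adipocyte, mesothelial and endothelial markers. Intestinal epithelium markers except Vil1 lie far left of 0 on both diets.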

How the data were processed

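Two-colour Agilent rat arrays (rn4 annotation, per the file headers) compared the FeD pool and the FeO pool with the FeA pool. The deposited intensity values are the median spot and background signals that the authors extracted with Agilent Feature Extraction 10.1.1.1. The deposited log10 values are red over green processed signals and, with the processed intensity, served as an alternative. The authors' tables of fold changes, p-values, q-values and keep or discard tags gave probe symbols only. Background was corrected with limma 3.58.1 (R 4.3.3) by normexp with an offset of 50 and ratios by loess within arrays. Controls and spots marked as outliers (722 to 938 per array) were left out, replicate spots and passing probes of a gene were averaged, and the exchanged array was turned. Channel levels followed Aquantile normalization. Probes counted as above background in a channel where over 50% of their spots did. Bounds ("at least N-fold") set the brighter pool against the dimmer pool's own level or the lowest level well above background, whichever was higher. Steps were tested on simulated data. Alternatives were other backgrounds, centring, filters, sizes, probes, single arrays and tests of the pools. The members, gene lists and criteria were chosen with earlier results of these data known. Named with values are members at least 1.5-fold changed on either diet and the extremes of each role group. Counts and plots used pandas 2.3.3, numpy 2.4.6 and matplotlib 3.10.9 in Python 3.11.15. Quantitative PCR and mineral measurements were not analysed here. The values of 1 gene of the laminin list are not reported here, and the counts and medians of that list include it.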

Additional observations from a re-analysis of the deposited data

How the results depend on the processing

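The median ratio of the members in FeO, 0.40, was 0.54 with an offset of 0 and 0.61 with the scanner's processed signals, and it ran from 0.30 to 0.49 when either array was left out. In FeD the median of 0.0678 ran from -0.0481 to 0.0876 over single arrays. The 4 members at least 2-fold higher in FeO became 9 with processed signals, 2 to 7 on single arrays, 12 at 1.5-fold and 0 at a log2 ratio of 2. The share of all genes past 2-fold was not counted for processed signals or single arrays. With a test of the RNA pools added, which does not test the diets, 3 remained by the methods' t-test, 0 by that test with Benjamini-Hochberg adjustment and 2 by limma with the same adjustment (Fn1 and Timp1). With no size criterion, the methods' t-test gave 11 of 42 members below its threshold in FeO, against 8.19% of all genes, and 2 of 39 in FeD, against 6.68%, and after adjustment it gave 0 and 0. Members lower on both arrays in FeO, 2 as reported, numbered 0 with median centring, against 14.9% of all genes. With no filter they numbered 4, against 24.6%, and on single arrays 3 to 6, against 47.1% to 49%. In FeD they were 4 instead of 7 without background subtraction, against 21.4%, and with median centring, against 12.3%. On single arrays in FeD they numbered 13 to 21, against 47.8% to 48.6%. The 3 counts of 0 members at least 2-fold lower or, in FeD, higher changed under none of these settings. Of the values of named members, 10 of 184 in FeD and 8 of 168 in FeO moved by more than the spread between arrays under settings that kept both arrays. No member at least 1.5-fold changed turned its sign, which covers FeO only, since FeD had no such member. The measure is wide where the arrays differ. Col5a1 in FeO went from 0.68 to 1.14 with processed signals and did not count as moved. A single array cannot pass that measure, and on array 1 alone Sparc in FeO fell from 0.76 to 0.01. Fn1 was 0.65 in FeO with its dim probe included. Each ratio pairs the diet and FeA channels of 1 array, and limma used these ratios. The methods' t-test set the 2 diet channels against the 2 FeA channels without that pairing. No pairing by animal was possible because the array numbers follow accession order and each pair of arrays carries the same RNA. Signal over background limits the dim members, and 3 of 45 had no value on either diet.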
